A study of Mus musculus with 9 samples.

Results

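The comparison described here is that of the RANKL culture with the WENRC culture of mouse duodenal organoids, also called mini-guts, which are 3-dimensional cultures of gut epithelium. The labels give the cell type of RANKL as the intestinal M cell and that of WENRC as the intestinal stem cell, without spelling out either abbreviation. GRO-seq, or global run-on sequencing, maps the RNA that engaged polymerases are making in isolated nuclei, so its values stand for transcription rather than for the amount of stored RNA. Each culture had 2 GRO-seq libraries, and the 2 libraries of the ENRI culture, labelled enterocyte, served to estimate the spread. All genes whose value was not 0 in all 6 libraries were taken, which were 22374 of the 24505 genes listed, and 16563 of those had a high enough value to be tested. The tissue of every library was duodenum, and the strain, age and sex of the mice, the composition of the media and the length of the cultures are not given in the labels. The labels number the WENRC and ENRI libraries by mouse, with the same mouse numbers in both, and the main fit treats them as independent. Those of RANKL are numbered by library alone, so it is not known whether the RANKL libraries came from separate mice, and their p-values may measure technical spread.

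M cells are epithelial cells that sample particles and microbes from the gut lumen and hand them to immune cells beneath. They form when RANKL, a TNF family cytokine from the stroma, binds its receptor RANK on epithelial cells. RANK signals through TRAF adaptor proteins to the kinases that free NF-kB dimers, in particular the pair of RelB with p52, the processed product of Nfkb2, and the transcription factors Spi-B and Sox8 then act in M cell maturation. Intestinal stem cells carry Lgr5, divide under Wnt and EGF signals, and give rise to all lineages of the gut epithelium.

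In RANKL, 1412 genes were higher than in WENRC (8.53% of those tested) and 600 were lower (3.62%), together 12.1%, by limma at a false discovery rate (FDR) under 0.05. Values are log2 values as the authors normalized them, a change is RANKL minus WENRC on that scale, and if the values are regularized logs, which is inferred from the shape of the low values and not stated in the sources used here, changes of lowly transcribed genes are understated. The rises reached further than the falls. Of the called genes, 269 rose by over 2 and 82 by over 3, against 39 and 3 that fell by as much, and 36 rose by over 4 while 0 fell by over 4. Across all tested genes the median change was -0.01. With the 4 libraries of the compared cultures alone, 18.1% of the genes were called higher and 13.2% lower, together 31.4%, and in the authors' deposited table the shares were 16.7% and 11.1%, together 27.8%. Counts of list members below are to be read against these shares, 8.53% and 3.62% for the fit of 6 libraries and 18.1% and 13.2% for that of 4. Rises were 70.2% of the calls, which fell to 58.7% after quantile normalization (1275 higher and 896 lower) and to 53.3% after recentring on upper quartiles (1245 and 1091), where the median of all genes was -0.12. Both RANKL values lay above both WENRC values in 34.1% of the genes and below both in 34.5%. The RANKL libraries were sequenced apart from the others per the file headers, so sequencing batch and culture cannot be told apart. Leaving out RANKL 1 or RANKL 2 left 0 calls with limma at that FDR (2702 and 2486 genes at an unadjusted p under 0.05), and leaving out WENRC 1 or WENRC 2 left 262 and 216. Of 370 called genes covered by the rule for named genes, 0 kept the call without either RANKL library, 81 without WENRC 1 and 78 without WENRC 2.

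**Figure D1:**
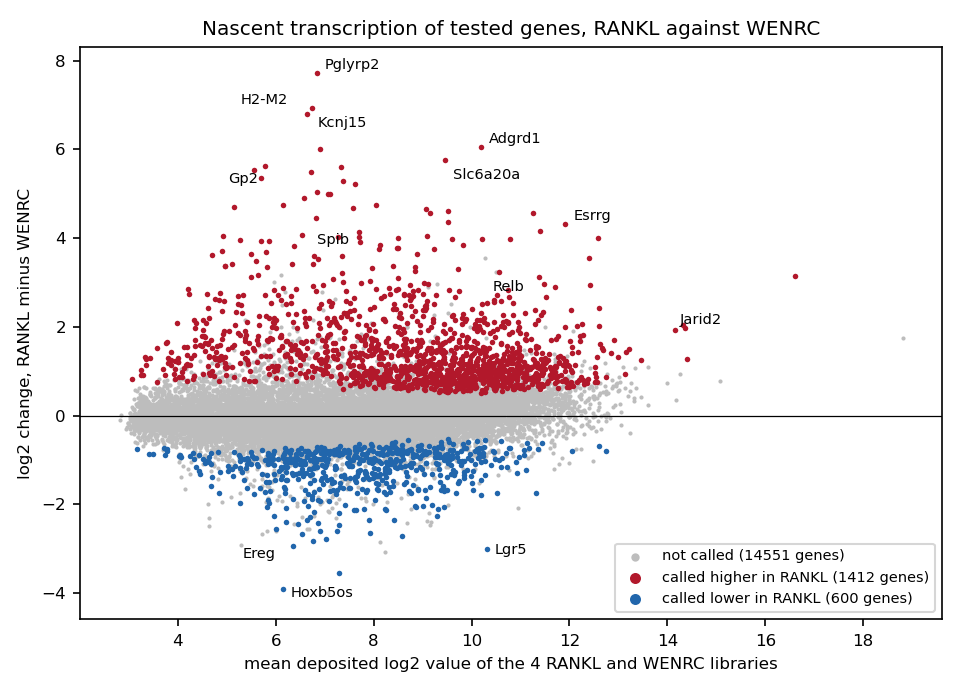
Change of each of the 16563 tested genes (vertical axis, log2, RANKL minus WENRC) against its mean deposited log2 value over the 4 libraries (horizontal axis), with one point per gene, red for 1412 genes called higher and blue for 600 called lower. The points above 4 are all rises, led by Pglyrp2 at 7.72, and the lowest labelled point is Hoxb5os at -3.90.

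Most M cell marker genes rose. Of 21 tested, 15 (71.4%) were called higher and 0 lower, against 8.53% and 3.62% of all tested genes, with a median change of 2.96 (17 higher and 1 lower with 4 libraries). Gp2 (chromosome 7, 126586058 to 126602786 in mm9), the M cell surface receptor that binds bacteria, had 8.56 and 8.65 in the RANKL libraries, 2.66 and 3.29 in WENRC and 2.56 and 3.72 in ENRI. It rose by 5.62 (SE 0.42, limma FDR 0.00209), and both RANKL values stood far above all 4 others. Spib (chromosome 7, 51781365 to 51787441 in mm9), which encodes Spi-B, had 9.62 and 9.79 against 5.87 and 5.50 in WENRC and 5.12 and 5.38 in ENRI and rose by 4.02 (SE 0.21, limma FDR 0.00136). Sox8 (chromosome 17, 25702838 to 25707631 in mm9) had 6.94 and 6.97 against 2.56 and 3.23 in WENRC and 2.57 and 2.83 in ENRI and rose by 4.06 (limma FDR 0.00175). In these 3 genes the WENRC and ENRI values lay side by side and only the RANKL values were high. Esrrg, the gene of the orphan nuclear receptor ERR-gamma, which overlaps 9330162B11Rik, had 14.02 and 14.12 in RANKL, whereas WENRC had 9.48 and 10.05 and ENRI 6.80 and 8.82, and it rose by 4.31 (limma FDR 0.0121). Unlike Gp2 and Sox8, whose WENRC values lay below the test minimum of 3.32, it was also well above that minimum in WENRC. Tnfaip2, a TNF-induced gene linked to membrane tubes, rose by 4.68, Ncf4, a subunit of the phagocyte oxidase, by 5.34, Icam1, an adhesion molecule for leukocytes, by 3.6, and Rac2, a small GTPase of the actin skeleton, by 3.49 (limma FDR 0.00123, 0.00144, 0.00601 and 0.00461). Prnp, the prion protein gene, which overlaps Prn, rose by 2.70. Tnfrsf11b, the gene of the RANKL decoy receptor osteoprotegerin, had 10.85 and 10.82 in RANKL and 8.17 and 8.48 in WENRC, a change of 2.51 that was not called (limma FDR 0.14). Its ENRI values, 9.10 and 5.91, lay far apart, and with the 4 compared libraries it was called (limma FDR 4.70e-05).

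**Figure D2:**
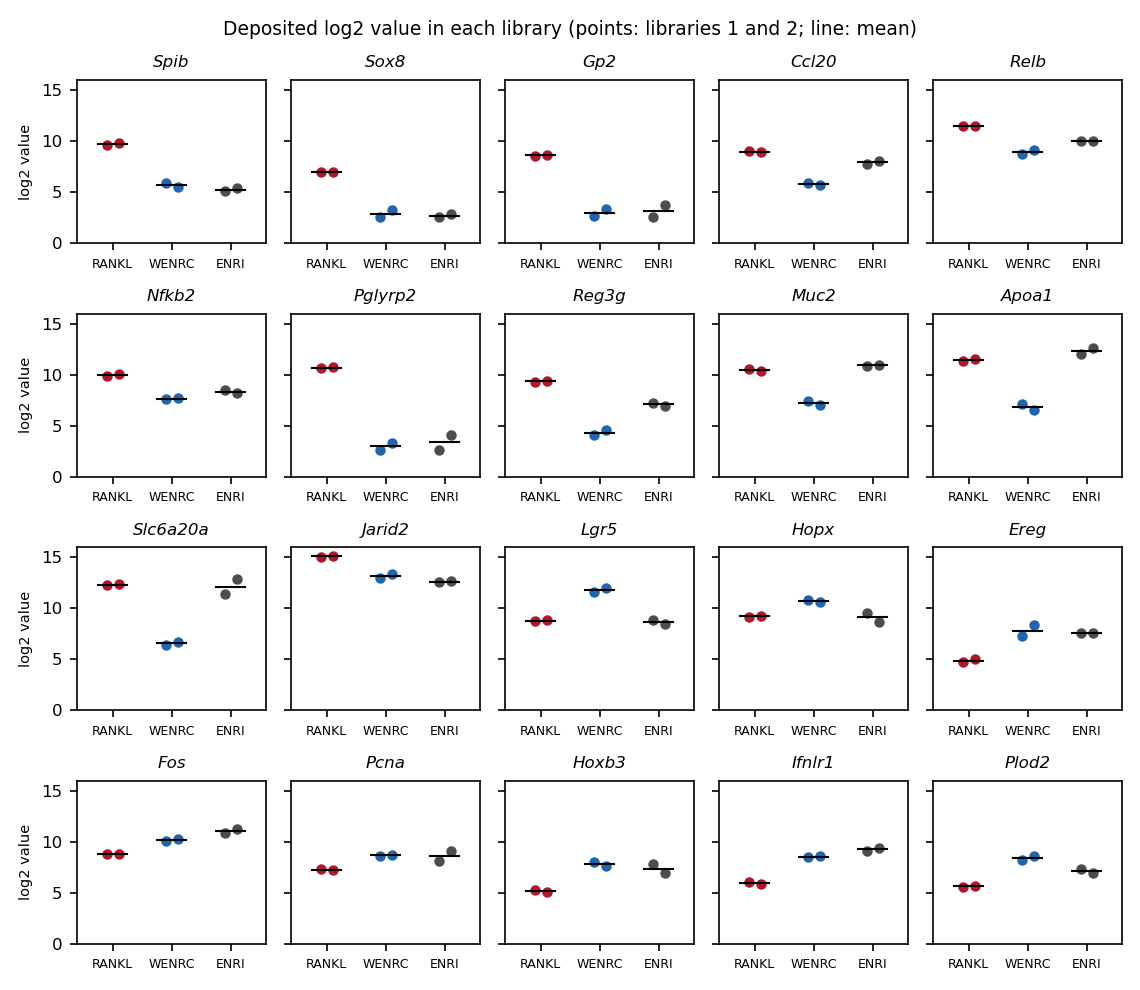
Deposited log2 values of 20 genes (one panel each) in the 2 libraries of RANKL (red), WENRC (blue) and ENRI (grey), with lines at the means of 2. Spib, Sox8, Gp2 and Pglyrp2 are high in RANKL alone, and Muc2, Apoa1 and Slc6a20a are high in RANKL and ENRI. Lgr5 and Hopx are highest in WENRC, and their RANKL values are lower but well above the test minimum.

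Many genes of the RANK and NF-kB route rose too. Of 27 tested pathway components, 15 were called higher and 0 lower, with a median change of 0.99 (21 and 0 with 4 libraries), and of 15 NF-kB response genes 10 were called higher and 0 lower, with a median of 2.13. Relb, Nfkb2, Nfkbia, Birc3 and Tnfaip3 stand in both lists. The receptor gene Tnfrsf11a had 12.42 and 12.43 in RANKL against 10.25 and 10.29 in WENRC and 9.76 and 9.45 in ENRI, and rose by 2.15 (SE 0.15, limma FDR 0.00181). Relb (chromosome 7, 20191572 to 20214787 in mm9) had 11.44 and 11.50 against 8.78 and 9.12 in WENRC and 10.03 and 10.02 in ENRI and rose by 2.52 (SE 0.16, limma FDR 0.00146). Nfkb2, which overlaps Psd, had 9.90 and 10.12 against 7.57 and 7.75 in WENRC and 8.46 and 8.25 in ENRI and rose by 2.35 (limma FDR 0.00181). For Relb and Nfkb2 the ENRI values lay between those of the other cultures. Among the response genes, Tnip1, which encodes a partner of the brake protein A20, had 12.82 and 12.88 against 10.18 and 10.19 in WENRC and rose by 2.66 (SE 0.13, limma FDR 0.00123). Tnfaip3, the gene of A20 itself, rose by 2.13 (limma FDR 0.0144), and the inhibitor of apoptosis genes Birc3 and Birc2, whose products join the TRAF complex, rose by 2.09 and 1.22. Nfkbia and Nfkbie, which encode inhibitors that hold NF-kB in the cytoplasm, rose by 2.11 and 2.13, and the adaptor genes Traf3, which overlaps 4930595D18Rik, and Traf2 by 1.33 and 1.20. The kinase subunit genes Ikbkb and Ikbkg (the latter overlaps G6pdx), with changes of 0.02 and -0.23, and Traf6, with 0.23, were not called. Nfkbia, Nfkbie, the 2 Traf adaptor genes and the 3 genes that were not called were picked after seeing their values.

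The start regions of several of these genes hold the NF-kB letters. In RefSeq windows of GRCm38.p6, reaching from 250 bases before a gene's start to 50 after it, the letters GGG and TTCC spaced by any 3 bases, on either strand, occurred in 7.15% of 12962 tested genes, in 8.24% of 1128 genes called higher and in 5.88% of 459 called lower. It occurred in 7 of 12 response genes (58.3%) and 11 of 21 pathway components (52.4%) that had a window, in 3 of 16 M cell markers, and in 0 of 17 AP-1 and immediate early genes. The response and pathway lists were chosen for their tie to NF-kB, and they share genes, so their shares are a description. The part of these letters in the rises was not tested. Members that were not called held these letters too, among them Cxcl1, with 3 matches and a change of -0.23, Chuk, Rel, Traf5, Map3k7, Cxcl10 and Pglyrp1. The windows of 5 called genes, picked with their changes known, are shown with the matches in capitals. Other called genes, among them Tnfaip3 and Nfkbie, held matches too. Their first matches begin at -38, -58, -29, -10 and -80 bases from the start in Nfkb2, Tnip1, Nfkbia, Traf3 and Ccl20. That of Nfkb2 is chr19:46304487-46304786 (plus strand) and is 1 of its 3 windows, that of Tnip1 chr11:54962891-54963190 (minus strand), that of Nfkbia chr12:55492598-55492897 (minus strand), that of Traf3 chr12:111166120-111166419 (plus strand) and that of Ccl20 chr1:83116516-83116815 (plus strand).
Nfkb2: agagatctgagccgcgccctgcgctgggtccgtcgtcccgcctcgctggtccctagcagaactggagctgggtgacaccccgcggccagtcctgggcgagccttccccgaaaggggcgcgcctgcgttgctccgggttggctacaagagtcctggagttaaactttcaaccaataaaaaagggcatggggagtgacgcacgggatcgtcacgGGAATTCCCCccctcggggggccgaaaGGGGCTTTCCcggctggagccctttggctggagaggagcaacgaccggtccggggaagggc
Tnip1: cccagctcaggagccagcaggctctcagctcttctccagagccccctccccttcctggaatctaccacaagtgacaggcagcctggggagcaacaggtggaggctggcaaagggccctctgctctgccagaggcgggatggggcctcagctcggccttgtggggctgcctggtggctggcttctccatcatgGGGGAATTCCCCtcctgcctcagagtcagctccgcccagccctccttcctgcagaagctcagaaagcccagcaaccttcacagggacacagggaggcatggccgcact
Nfkbia: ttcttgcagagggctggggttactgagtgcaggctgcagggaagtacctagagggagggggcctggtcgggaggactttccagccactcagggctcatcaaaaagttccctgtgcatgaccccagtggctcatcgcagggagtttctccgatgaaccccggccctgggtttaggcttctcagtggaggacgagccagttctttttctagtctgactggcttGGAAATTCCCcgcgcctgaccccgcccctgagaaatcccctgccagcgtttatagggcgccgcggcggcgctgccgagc
Traf3: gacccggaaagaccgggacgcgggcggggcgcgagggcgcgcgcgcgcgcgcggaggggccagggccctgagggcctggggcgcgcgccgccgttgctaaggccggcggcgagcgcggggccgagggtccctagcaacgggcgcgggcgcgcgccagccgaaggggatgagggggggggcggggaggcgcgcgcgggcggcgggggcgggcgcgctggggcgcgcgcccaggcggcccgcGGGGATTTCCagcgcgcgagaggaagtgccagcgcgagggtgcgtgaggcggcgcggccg
Ccl20: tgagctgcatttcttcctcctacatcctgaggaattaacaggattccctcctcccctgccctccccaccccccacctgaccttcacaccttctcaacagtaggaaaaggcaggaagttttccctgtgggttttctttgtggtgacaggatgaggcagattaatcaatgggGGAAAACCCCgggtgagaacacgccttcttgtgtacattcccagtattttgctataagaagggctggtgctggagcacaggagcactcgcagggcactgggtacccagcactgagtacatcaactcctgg
The core letters of a Spi-B site, GAGGAAGT, occurred in a window of 3.46% of the tested genes and of 0 of 16 M cell markers, and those of an estrogen-related receptor site, CAAGGTCA, in 1.37% and 0 of 16. Such a count covers these windows alone.

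Chemokines, TNF family members and genes of antigen presentation were among the rises. Of 11 tested chemokine and receptor genes, 5 were called higher and 0 lower. Ccl20 (chromosome 1, 83113341 to 83115742 in mm9), the chemokine that attracts cells with the receptor CCR6, had 9.0 and 8.92 in RANKL, against 5.84 and 5.65 in WENRC and 7.78 and 8.05 in ENRI, and rose by 3.22 (SE 0.18, limma FDR 0.00142). Ccl9 had 8.08 and 8.02 against 4.62 and 4.62 in WENRC and 4.50 and 3.82 in ENRI and rose by 3.43 (limma FDR 0.00218). RANKL was highest for both, but for Ccl20 ENRI also stood above WENRC. Ccl6, which overlaps E230016K23Rik, rose by 2.49 and Cxcl16, which overlaps Zmynd15, by 1.25. In the TNF superfamily 6 of 24 genes were called higher and 0 lower (11 and 4 with 4 libraries), among those higher the death ligand Tnfsf10, which encodes TRAIL (change 2.97), the death receptor Fas (1.44) and Tnfrsf8, which encodes CD30 (1.76). Of 19 antigen presentation genes 5 were called higher and 0 lower (8 and 1 with 4 libraries). The class I-like gene H2-M2 (chromosome 17, 37617796 to 37620499 in mm9) had 10.19 and 10.21 in RANKL, whereas WENRC had 2.82 and 3.71 and ENRI 3.20 and 3.23, and it rose by 6.93 (SE 0.31, limma FDR 0.00123), from values near the test minimum in both other cultures. The peptide transporter gene Tap2 rose by 1.38, the invariant chain gene Cd74, which overlaps Mir5107, by 1.12, and H2-T23, which overlaps A930015D03Rik, by 0.95. Of 29 interferon response genes 1 was called higher and 1 lower (Isg20, -1.09), with a median of -0.03. With 4 libraries 6 were called higher and 6 lower, against 18.1% and 13.2% of all tested genes. Of the guanylate binding and Ifi genes, 5 of 39 were called higher (12.8%, against 8.53% of all tested genes) and 6 lower (15.4%, against 3.62%). Gbp8, Gbp9 and Gbp4, which are neighbours on chromosome 5, rose by 4.90, 3.93 and 3.64, while Ifi27l2a, which overlaps Ifi27, fell by 1.32 on the log2 scale.

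Several genes for defence at the gut surface rose. Of 22 tested mucin, antimicrobial and complement genes, 10 (45.5%) were called higher and 1 lower, with a median change of 1.19 (14 and 1 with 4 libraries). Pglyrp2 (chromosome 17, 32549406 to 32561112 in mm9), an amidase that cuts bacterial peptidoglycan, had 10.64 and 10.76 in RANKL, against 2.6 and 3.35 in WENRC and 2.62 and 4.1 in ENRI. Its rise of 7.72 (SE 0.51, limma FDR 0.00175) was the largest of all called genes. Reg3g (chromosome 6, 78416263 to 78418868 in mm9), a lectin that kills Gram-positive bacteria, had 9.29 and 9.44 against 4.08 and 4.55 in WENRC and 7.2 and 6.97 in ENRI and rose by 5.05 (SE 0.22, limma FDR 0.00123). Muc2 (chromosome 7, 148876239 to 148940599 in mm9), the main secreted mucin of goblet cells, had 10.58 and 10.37 against 7.44 and 7.0 in WENRC and 10.86 and 11 in ENRI and rose by 3.25 (limma FDR 0.00144). ENRI stood between the cultures for Reg3g and somewhat above RANKL for Muc2. Reg4 rose by 2.42, and Lypd8, a protein that keeps flagellated bacteria from the epithelium, fell by 1.68 on the log2 scale. Of 10 goblet cell markers 5 were called higher and 0 lower (median 0.98), with Zg16 at 3.36, Clca1 at 2.46 and Fcgbp at 2.38, all 3 of which encode parts of goblet cell mucus. Of 10 Paneth cell markers 5 were called higher and 1 lower (median 1.22), with Reg3g, which stands in both lists, Defa17 (2.6) and Defa24 (2.39, overlapping Defa6) the highest and Nupr1 (-1.44) the called fall.

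Defensin genes were called in rows along the chromosome. An unbroken row of 14 tested genes of the alpha-defensin cluster on chromosome 8, from 22427088 to 22845943 in mm9, was called higher, with changes from 1.08 to 2.75, and a second row of 5 from 22165224 to 22275277 had changes from 0.76 to 2.82. Alpha-defensins are the antimicrobial peptides of Paneth cells. In the row of 14, 10 genes overlap another listed gene and 2 have more than 1 genomic copy, and alpha-defensin genes are near-identical to each other, so reads may be split among them and the members are not separate measurements. Rows of at least 3 neighbouring tested genes called the same way numbered 70 for rises, with 260 genes, and 15 for falls, with 48 genes. Among the others, 6 genes on chromosome 7 from 18830696 to 19152654 rose by 2.15 to 6.01. They were the class I-like gene Mill1 and 5 genes of pregnancy-specific glycoproteins (Psg18, Psg28, Psg26, Psg25 and Psg27). Mill1 had 9.89 and 9.95 in RANKL, whereas WENRC had 3.79 and 4.02 and ENRI 5.26 and 4.52 (change 6.01, limma FDR 0.00123). On chromosome 17, a row of 6 genes from 34491767 to 34654297 rose by 1.25 to 2.03. It held Btnl2, Btnl1, Btnl4 and Btnl6 of the butyrophilin-like family, which acts on gut T cells. The others were the pseudogene Btnl5-ps and BC051142, which does not carry the family's name. On chromosome 9 a row of 6 from 7628231 to 7873170 that ends in Birc2 and Birc3 rose by 0.92 to 2.51. In that row 4 genes overlap another. On chromosome 2, 5 genes from 131645742 to 131855724, with Erv3 (5.54), an endogenous retroviral gene, and Prnp among them, rose by 1.58 to 5.54, and 2 of them overlap another. The rows described were picked after seeing their values.

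Part of the absorptive programme was also higher in RANKL than in WENRC. Of 20 enterocyte markers 8 were called higher and 0 lower (10 and 1 with 4 libraries), with a median change of 1.0 that was 1.30 without WENRC 1 and 0.46 without WENRC 2. Apoa1 (chromosome 9, 46036713 to 46038552 in mm9), which encodes the main protein of high-density lipoprotein, had 11.32 and 11.56 in RANKL, against 7.16 and 6.57 in WENRC and 12.08 and 12.66 in ENRI, and rose by 4.57 (SE 0.27, limma FDR 0.00144). Its neighbours Apoa4 and Apoc3 rose by 3.97 and 1.98. The sugar-splitting enzyme gene Sis had 13.79 and 13.82 against 12.11 and 10.66 in WENRC and 14.52 and 15.45 in ENRI and rose by 2.42 (limma FDR 0.0373), and Alpi, the brush border alkaline phosphatase, by 2.26 (limma FDR 0.0451). In these genes RANKL stood above WENRC and below ENRI. The proline carrier gene Slc6a20a (chromosome 9, 123546025 to 123587950 in mm9) had 12.30 and 12.37 in RANKL, whereas WENRC had 6.42 and 6.73 and ENRI 11.44 and 12.84, and it rose by 5.76 (SE 0.43, limma FDR 0.00217), with the RANKL values inside the range of ENRI. Of 30 lipid absorption and retinoid genes 6 were called higher and 0 lower (11 and 2 with 4 libraries), among them the retinol receptor gene Stra6 (1.91). The alcohol dehydrogenase genes Adh4, Adh1 and Adh6a, in 1 row of called genes on chromosome 3, rose by 3.0, 2.56 and 2.05. Of 69 cytochrome P450 genes 14 were called higher and 3 lower, led by Cyp2d34 (2.85) and Cyp2j5 (2.52), while Cyp3a25 had 6.81 and 6.39 in RANKL, against 9.78 and 8.70 in WENRC and 11.53 and 12.26 in ENRI and fell by 2.64 on the log2 scale (limma FDR 0.0147). Cyp3a25 thus had its lowest values in RANKL and its highest in ENRI. The intestinal transcription factor genes Maf (2.21), Hnf4g (1.79), Tcf7l2 (1.25) and Cdx1 (1.19) were among 6 of 30 called higher, and Elf3 (-0.79) was the 1 called lower.

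Some markers of rarer cell types rose. Of 8 tuft cell markers 2 were called higher (25%, against 8.53% of all tested genes), the transcription factor genes Gfi1b (2.09) and Pou2f3 (1.31), and of 9 enteroendocrine markers 2 (22.2%), the serotonin enzyme gene Tph1 (2.03) and Chga (0.89). Of 12 stromal and endothelial markers 9 were below the test minimum, among them Col1a1, Col3a1, Dcn and Cdh5, and Pdgfrb was the 1 called of the 3 tested, at 9.21 and 9.26 in RANKL against 7.12 and 6.44 in WENRC. On a linear scale the stromal list summed to 795 and 828 in RANKL. The sums were 455 and 315 in WENRC and 375 and 426 in ENRI. Most of the RANKL sum came from Pdgfrb, and the changes of the 3 tested genes ran from -0.60 to 2.45, so the sum does not speak for the other members. The part of stromal cells in the other rises was not tested. Of 12 leukocyte markers 5 were below the minimum, among them Cd3e, and 0 of the 7 tested were called with limma (1 at an unadjusted p under 0.05, 1 with 4 libraries). The largest change was that of Cd68 (-0.58, limma FDR 0.0574). Their summed level was 647 and 579 in RANKL against 690 and 742 in WENRC. In such bulk cultures more cells of a type and more transcription per cell cannot be told apart.

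**Figure D3:**
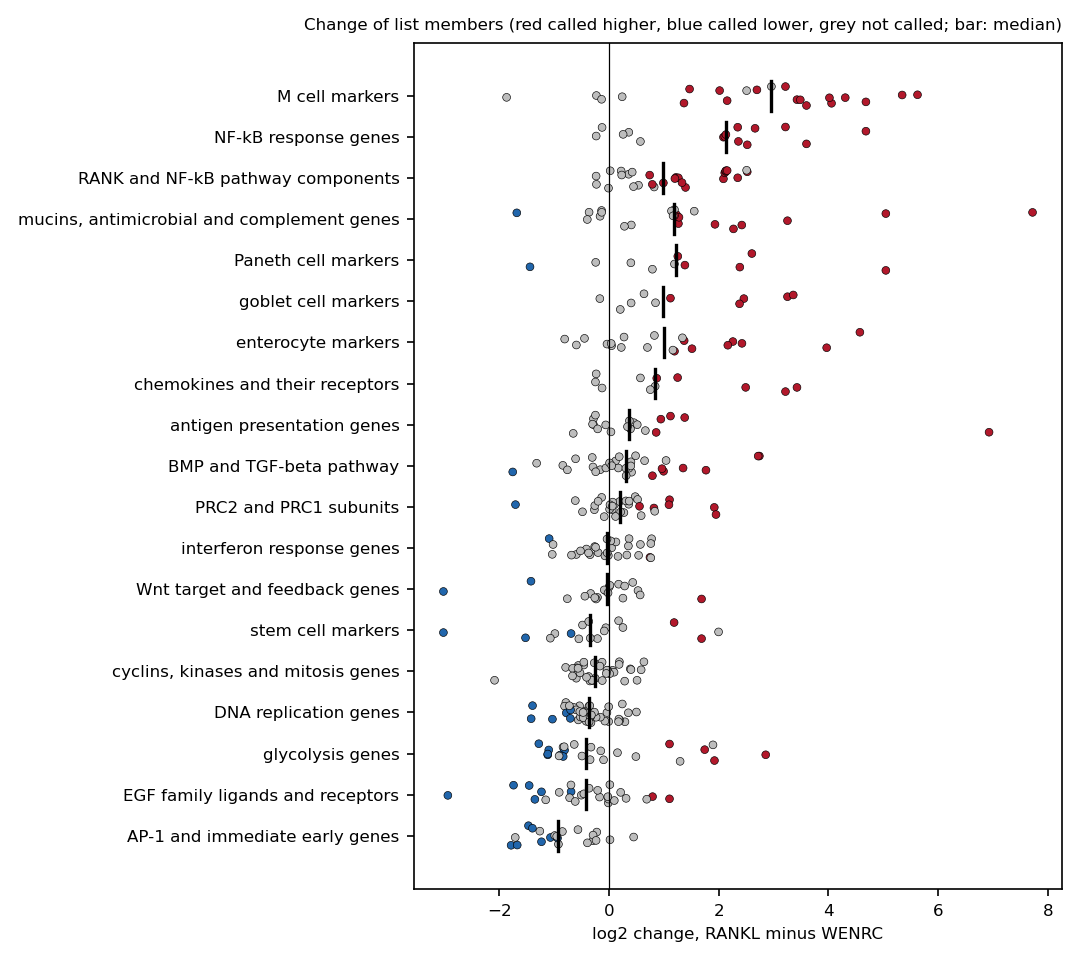
Change of each tested member (one point, log2, RANKL minus WENRC) in 19 gene lists, coloured by its call in the fit of 6 libraries, with a black bar at the list's median. The medians of the M cell, NF-kB and defence lists lie to the right of 0 and that of the AP-1 and immediate early genes, -0.94, to the left.

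Single channel, carrier and adhesion genes had some of the largest rises. The largest rise among channels was Kcnj15 (chromosome 16, 95479165 to 95521865 in mm9), an inward-rectifying potassium channel gene, with 9.95 and 10.11 in RANKL, whereas WENRC had 2.80 and 3.68 and ENRI 2.92 and 3.33, a change of 6.79 (SE 0.33, limma FDR 0.00123). The voltage-gated channel gene Kcnb2 rose by 4.56 (limma FDR 0.00805), and 6 of 66 potassium channel genes were called higher (9.09%, near the 8.53% of all tested genes) and 1 lower. The adhesion receptor gene Adgrd1 had 13.19 and 13.23 in RANKL against 7.45 and 6.88 in WENRC and 6.92 and 7.4 in ENRI, and 4 of the 24 adhesion G protein receptors were called higher and 1 lower, with Adgrb1 at 3.93 and Adgrg7 at 2.38. Itgb8, an integrin that activates latent TGF-beta together with the product of Itgav, had 10.41 and 10.45 against 5.26 and 6.10 in WENRC and 5.15 and 5.76 in ENRI and rose by 4.75 (SE 0.34, limma FDR 0.00184). Itgav itself rose by 1.99 (limma FDR 0.031), so the genes of both chains of this receptor were called higher. Of 29 semaphorin, plexin and neuropilin genes 5 were called higher and 0 lower (12 and 4 with 4 libraries), with Sema5a at 3.13, Sema4g at 2.06 and Sema7a at 2.05. Chloride channel and Clca genes gave 7 of 27 higher and 1 lower, with Clca4b at 3.85. The gap junction gene Gjb2 rose by 2.75, whereas the claudin gene Cldn2, which forms a pore in tight junctions, fell by 1.53 on the log2 scale and Krt8 by 0.92. Among 52 amino acid carriers 9 were called higher (17.3%, against 8.53% of all tested genes) and 6 lower (11.5%, against 3.62%). The glutamate carrier Slc1a3 rose by 3.90, while Slc7a5, a large neutral amino acid carrier, had 9.18 and 9.20 in RANKL, against 10.85 and 10.89 in WENRC and 8.72 and 8.69 in ENRI and fell by 1.69 on the log2 scale (SE 0.12, limma FDR 0.00184). Slc17a8, a glutamate carrier of the organic ion family, rose by 3.59. In that family 8 of 59 genes were called higher (13.6%) and 1 lower.

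For uptake and digestion inside the cell the changes were moderate. Of 41 endocytosis and vesicle genes 6 were called higher (14.6%, against 8.53% of all tested genes) and 0 lower, with a median of 0.20. With 4 libraries 17 were called higher and 5 lower, against 18.1% and 13.2% of all tested genes. Syt7, a calcium sensor of lysosome fusion, rose by 2.40, Vamp5 by 2.11, and Ehd1, an endosome recycling gene, by 1.25. Of 35 lysosome genes 7 were called higher (20%) and 2 lower (5.71%, against 3.62% of all tested genes). Their median of 0.11 was 0.31 without WENRC 1 and -0.09 without WENRC 2. The protease genes Ctss and Ctsh rose by 1.5 and 1.47, and the protease gene Ctsc fell by 1.32 on the log2 scale. The glycan list had 3 of 32 genes called higher (9.4%, near the 8.53% of all tested genes) and 2 lower (6.25%, against 3.62%). Its sialyltransferase genes St3gal1 and St3gal4 (the latter overlaps 4930581F22Rik) rose by 2.66 and 1.71, and Galnt7, which overlaps AW046200 and starts mucin-type glycans, fell by 1.74. Pattern receptor genes gave 4 of 26 called higher (15.4%) and 2 lower (7.69%), with a median of -0.04. Nod2 (2.54) and Casp4 (1.87) rose, and Aim2, a DNA sensor, fell from 9.94 and 9.25 in WENRC to 7.2 and 7.28 in RANKL (change -2.36, limma FDR 0.0446).

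Some BMP pathway and Polycomb genes rose. In the BMP and TGF-beta pathway 7 of 31 genes were called higher and 1 lower (12 and 4 with 4 libraries). The ligand gene Bmp2 had 9.69 and 9.74 in RANKL, whereas WENRC had 6.90 and 7.04 and ENRI 8.82 and 8.16, and it rose by 2.74 (SE 0.23, limma FDR 0.00316). Smad6 had 10.62 and 10.65 against 8.10 and 7.72 in WENRC and 7.77 and 7.48 in ENRI and rose by 2.72 (limma FDR 0.00181), and Smad7 rose by 1.77 (limma FDR 0.00355). Both encode inhibitors of the pathway and are known targets of it. Gdf15 was the 1 called lower in the fit of 6 libraries (-1.76). Of 31 genes of the Polycomb complexes PRC2 and PRC1, 6 were called higher and 1 lower. Jarid2 (chromosome 13, 44826143 to 45017012 in mm9), an accessory subunit of PRC2, had 15.07 and 15.17 in RANKL, against 12.99 and 13.41 in WENRC and 12.56 and 12.70 in ENRI and rose by 1.92 (SE 0.23, limma FDR 0.00727). Kdm2b, which brings a PRC1 form to CpG islands, had 11.44 and 11.56 against 9.59 and 9.51 and rose by 1.95 (limma FDR 0.00355). The catalytic subunit gene Ezh2 had nearly equal values, 10.55 and 10.67 and 10.57 and 10.53 (change 0.06, limma FDR 0.892), and Scmh1, a PRC1-associated gene, fell from 10.30 and 10.29 to 8.62 and 8.57 (change -1.70, limma FDR 0.0246). Among 53 histone and DNA modifying enzymes 10 were called higher and 0 lower, with a median of 0.34, but after quantile normalization 2 were higher and 2 lower with a median of 0.01. Their median length was 52.7 kb, against 22.9 kb over all tested genes.

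Stem cell markers were split, with Lgr5 among the largest falls. Of 17 stem cell markers 3 were called lower and 2 higher, with a median of -0.34 (6 lower and 3 higher with 4 libraries), which was -0.22 without WENRC 2 and -0.68 after quantile normalization. Lgr5, which overlaps A930009A15Rik, had 8.75 and 8.84 in RANKL, whereas WENRC had 11.64 and 11.99 and ENRI 8.89 and 8.51. Its fall by 3.02 on the log2 scale (SE 0.19, limma FDR 0.00166) left the RANKL values inside the range of ENRI. Hopx, a marker of reserve stem cells, had 9.20 and 9.29 against 10.87 and 10.66 and fell by 1.52 (limma FDR 0.0224), and the EGF receptor brake Lrig1, which overlaps Mir7041 and Slc25a26, fell by 0.69. Tnfrsf19 and Msi1 rose by 1.69 and 1.19. Olfm4 had 10.90 and 11.05 in RANKL, against 8.83 and 9.12 in WENRC and 5.14 and 7.41 in ENRI, a change of 2.0 that was not called (limma FDR 0.112, 9.57e-05 with 4 libraries), and Ascl2 had a change of -0.21 that was not called (limma FDR 0.541). Of 20 Wnt target and feedback genes 2 were called lower, Lgr5 and Sp5 (-1.42), and 1 higher, Tnfrsf19. Among 25 Wnt ligands and receptors, the ligand genes Wnt3 (1.38) and Wnt10a (1.07) and the co-receptor gene Lrp6 (1.10) were among 4 called higher, and the receptor genes Fzd3 (-1.49), Ror2 (-1.33) and Fzd8 (-1.21) were the 3 called lower. The Notch pathway had 3 of 22 genes called higher (13.6%, against 8.53% of all tested genes) and 2 lower (9.09%, against 3.62%), with a median of 0.06. Its receptor gene Notch1, which overlaps Mir6996, and the target Hes1 fell by 0.99 and 1.31, and Dtx1, Rbpj and the ligand gene Dll1 rose by 1.85, 1.23 and 1.17.

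Some immediate early genes and some EGF family genes fell. Of 21 AP-1 and immediate early genes 7 were called lower and 0 higher, with a median of -0.94 (14 lower and 1 higher with 4 libraries). Fos had 8.85 and 8.78 in RANKL, whereas WENRC had 10.11 and 10.30 and ENRI 10.92 and 11.32, and it fell by 1.40 on the log2 scale (SE 0.17, limma FDR 0.00816). Egr1, a zinc finger factor induced within minutes of growth factor signals, had 8.89 and 9.12 against 10.31 and 10.64 in WENRC and 10.50 and 11.22 in ENRI and fell by 1.47 (limma FDR 0.0222). Atf3 and Fosb fell by 1.78 and 1.67 (limma FDR 0.0272 and 0.0403). RANKL had the lowest values of the 3 cultures for each of these, with both RANKL libraries below all 4 others. Of 26 EGF family genes 6 were called lower and 2 higher. The ligand gene Ereg (chromosome 5, 91503643 to 91522675 in mm9) had 4.77 and 4.99 against 7.29 and 8.35 in WENRC and 7.55 and 7.6 in ENRI and fell by 2.94 (SE 0.35, limma FDR 0.00751). The ligand gene Hbegf had 8.77 and 8.86 against 10.29 and 10.82 in WENRC and 11.43 and 11.70 in ENRI and fell by 1.74 (limma FDR 0.00764). Etv5, Errfi1 and Dusp6, which respond to ERK signals, fell by 1.46, 1.35 and 1.23, and the receptor genes Erbb3, which overlaps Mir6917, and Erbb2, which overlaps Mien1, rose by 1.10 and 0.79. The median of the EGF list, -0.41, was -0.61 without WENRC 1.

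Many core histone genes and some DNA replication genes fell. Of 75 core histone genes 35 (46.7%, against 3.62% of all tested genes) were called lower and 1 higher (52 and 4 with 4 libraries), with a median of -0.80. Hist1h3e had 5.09 and 4.96 in RANKL, against 6.64 and 6.82 in WENRC and 5.89 and 5.68 in ENRI and fell by 1.71 on the log2 scale (SE 0.19, limma FDR 0.00674). Hist1h3f fell by 1.67. A row of 6 histone genes on chromosome 3 from 96049380 to 96073078 was called lower with changes from -1.68 to -0.93, though 4 of them have more than 1 genomic copy. Of 42 replication genes 6 were called lower and 0 higher (14 and 1 with 4 libraries). Pcna, the clamp that holds the polymerase on DNA, had 7.33 and 7.22 against 8.67 and 8.73 in WENRC and 8.13 and 9.14 in ENRI and fell by 1.42 (limma FDR 0.0421), and Rrm2, which makes deoxynucleotides, fell by 1.39. Of 38 cyclin, kinase and mitosis genes 0 were called with limma in either direction (2 higher and 7 lower at an unadjusted p under 0.05, 3 higher and 10 lower with 4 libraries). Mki67, a marker of dividing cells, had 11.40 and 11.63 against 11.24 and 10.99 (change 0.40, limma FDR 0.261). Ccnd2, which overlaps 9330179D12Rik, had the largest change of that list, -2.09 (limma FDR 0.0994). Core histone and ribosomal protein genes also have near-identical copies among which reads may be split. Core histone genes are short, with a median of 0.502 kb, and the change went with length across all tested genes. The 83 cytoplasmic ribosomal protein genes had a median of -0.49, and 5 were called lower and 1 higher. That count depended on the scaling, with 22 lower after recentring on upper quartiles and 19 after quantile normalization, and with 4 libraries it was 44.

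Hox genes and a cytokine receptor locus were among the losses. Of 13 tested Hox genes 6 were called lower and 0 higher (9 and 0 with 4 libraries), with a median of -1.31. Hoxb3 (chromosome 11, 96184440 to 96209244 in mm9) had 5.29 and 5.11 in RANKL, whereas WENRC had 8.06 and 7.69 and ENRI 7.80 and 6.98, and it fell by 2.67 on the log2 scale (SE 0.31, limma FDR 0.00701). Hoxb9 fell by 1.64 (limma FDR 0.00715). The transcript Hoxb5os, which overlaps Hoxb5 and Hoxb6, had 4.07 and 4.31 against 8.32 and 7.86 in WENRC and 8.13 and 7.01 in ENRI and fell by 3.90, the largest fall among called genes. Anxa1, the gene of an annexin, had a larger change of -4.0 that was not called (limma FDR 0.108) and was picked after seeing its value. Hox genes set position along the body axis, and in Hoxb3 and Hoxb5os the WENRC and ENRI values overlapped. On chromosome 4, Ifnlr1, the receptor gene for interferon lambda, and Il22ra1, the receptor gene for interleukin-22, lie side by side. Ifnlr1 had 6.06 and 5.86 in RANKL, against 8.50 and 8.63 in WENRC and 9.12 and 9.41 in ENRI and fell by 2.61 (SE 0.18, limma FDR 0.00181), and Il22ra1 had 7.26 and 7.12 against 9.53 and 9.06 in WENRC and 10.73 and 11.47 in ENRI and fell by 2.11 (limma FDR 0.0097). Both were lowest in RANKL and highest in ENRI. Among 25 interleukin and receptor genes 4 were called lower, with the alarmin genes Il18 (-1.91) and Il33 (-1.19) beside Il22ra1 and Il1rap (-1.37, overlapping Gm20319), and 2 higher, the receptor genes Il4ra (1.96) and Il6st (1.25).

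Sugar metabolism was split. Of 24 glycolysis and gluconeogenesis genes 7 were called lower and 4 higher. Pgk1 had 9.0 and 9.05 in RANKL, whereas WENRC had 10.35 and 10.27 and ENRI 9.78 and 10.16, and it fell by 1.28 on the log2 scale (SE 0.16, limma FDR 0.00845), and Gapdh, the glucose carrier gene Slc2a1 and the hexokinase gene Hk2 fell by 1.12, 1.12 and 1.10. The called rises held the gluconeogenic genes G6pc (2.86) and Fbp1 (1.92), whose ENRI values, 9.31 and 10.55 and 8.32 and 9.29, were also above WENRC at 7.07 and 6.18 and 6.88 and 7.0, and the regulators Pfkfb4 (1.74) and Pfkfb3 (1.10). The list's median of -0.42 was -0.23 without WENRC 1, -0.72 without WENRC 2 and -0.67 after quantile normalization. Plod2, which modifies collagen lysines and overlaps B430319G15Rik, had 5.63 and 5.66 against 8.24 and 8.61 in WENRC and 7.36 and 6.92 in ENRI and fell by 2.79 (limma FDR 0.00271). Among 30 oxidative stress genes 4 were called higher (13.3%, against 8.53% of all tested genes) and 3 lower (10%, against 3.62%). Gpx3 rose by 2.08 and Gpx2 fell by 1.90, both of them glutathione peroxidases. Of 24 citric acid cycle genes 1 was called higher and 0 lower (3 and 2 with 4 libraries), and of 27 fatty acid oxidation genes 1 and 0 (4 and 6 with 4 libraries).

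The same cultures were profiled for H3K27me3, the repressive histone mark laid down by PRC2, in 2 RANKL libraries pooled by the authors and 1 WENRC library, so these values have no replicate check. Regions within 5 kb of a start site with more of the mark in WENRC lay at 5.01% of all tested genes and at 11.4% of the genes called higher in RANKL, and at 26.8% of the 269 that rose by over 2. Regions with more of the mark in RANKL lay at 18.0% of all tested genes, at 32% of those called lower, and at 53.8% of the 39 that fell by over 2. Among the M cell markers 8 of 21 had a region higher in WENRC. At Sox8 such a region on chromosome 17 from 25705304 to 25709968 held 304 tags in WENRC against 103 in RANKL, an authors' fold of 2.95. Gp2, Icam1 and Ccl9 had such regions with few tags, 21.6 against 4, 18 against 4 and 25.2 against 8. Their authors' folds were 5.4, 4.5 and 3.15. Ncf4 had a region with 29.7 against 9 tags (fold 3.3). Tnfaip2 had regions of both kinds, with 21.6 tags in WENRC against 7 in RANKL, and 24 in RANKL against 8.1 in WENRC. The largest tag difference among the named rises was at Slc6a20a on chromosome 9 (123583784 to 123589681), with 375 tags in WENRC and 42 in RANKL (fold 8.94). Smad6 had 256 against 52 (fold 4.92). Spib, Relb and Tnfrsf11a had no such region of either kind within this distance. In the other direction, the region over the Lgr5 start on chromosome 10 (115022107 to 115026399) held 303 tags in RANKL and 92.7 in WENRC (fold 3.27), and 10 of 13 Hox genes had a region higher in RANKL. So did 17 of 25 Wnt ligands and receptors, a list with calls in both directions, 5 of 10 goblet cell markers and 7 of 9 enteroendocrine markers, lists with called rises and 0 called falls. At the cytokine receptor pair on chromosome 4, Ifnlr1 had 447 tags in RANKL against 47.7 in WENRC (135239604 to 135246380, fold 9.37), and Il22ra1 had 139 against 18.9 (135281303 to 135283603, fold 7.35). The 161 genes called higher that had a region higher in WENRC were a larger share (11.4%) than over all tested genes (5.01%). Regions higher in RANKL also lay at 155 of the 1412 genes called higher, a smaller share than the 18.0% of all tested genes. Among them were Tnfrsf19, Wnt10a, Tph1, Chga, Stra6 and Dtx1, and Muc2, where 3 regions near the start held more of the mark in RANKL, with folds from 2.3 to 2.56. Only 4 of 75 core histone genes had a region higher in RANKL and 0 one higher in WENRC.

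**Figure D4:**
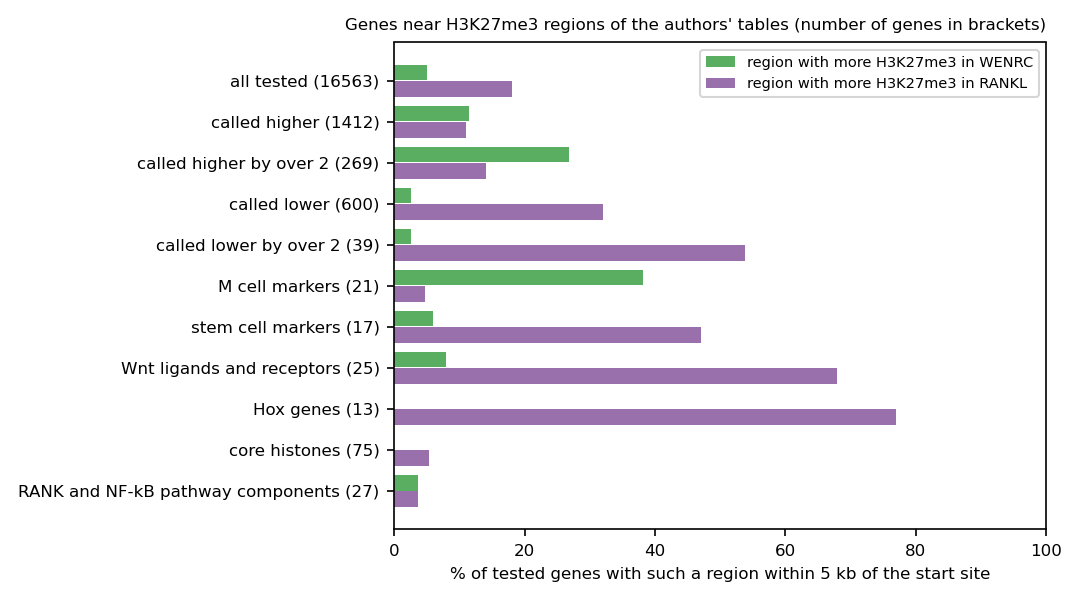
Share of tested genes (horizontal axis, %) in 11 sets that had a region within 5 kb of the start site with more H3K27me3 in WENRC (green) or in RANKL (purple) by the authors' tables. Regions higher in WENRC lay at 8 of 21 M cell markers, and regions higher in RANKL at 10 of 13 Hox genes and 53.8% of the genes that fell by over 2.

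The change also went with gene length. Genes shorter than 2 kb had a median change of -0.22, with 5.52% called higher and 7.59% lower, and genes of at least 100 kb had one of 0.12, with 9.66% and 3.79%. Genes called higher had a median length of 31.3 kb and those called lower 16.9 kb. After quantile normalization the medians ran from -0.21 in the shortest to -0.03 in the longest genes, so the step among short genes was left and the rise above 0 among long genes was not. The part of length in the falls of the histone, ribosomal protein and immediate early genes, whose median lengths were 0.502, 3.07 and 4.26 kb, was not tested. The median length of M cell markers was 13.6 kb and that of NF-kB response genes 10.3 kb, and genes of 10 to 20 kb had a median change of -0.04. The Y-linked gene Ddx3y stood high in the libraries of mouse 1, at 8.29 in WENRC 1 and 8.5 in ENRI 1. It was near the test minimum elsewhere, from 3.28 in WENRC 2 to 3.6 in RANKL 2. Xist, which overlaps Tsix, had 5.42 in WENRC 1 and 4.52 in ENRI 1. Its values elsewhere ran from 10.9 in ENRI 2 to 12.18 in RANKL 2. Kdm5d, Uty and Eif2s3y were split as Ddx3y was. By these genes mouse 1 was male and the other libraries female, so WENRC was of mixed sex and RANKL was not. The part of sex in the changes was not tested. With chromosomes X and Y left out, 1969 of 16064 genes were called.

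**Figure D5:**
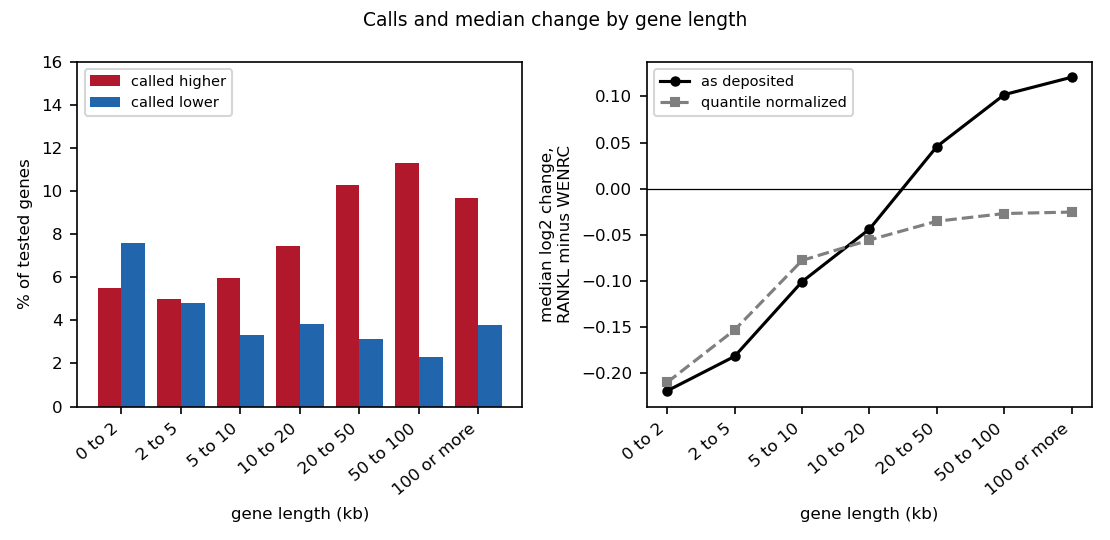
Left, the share of tested genes called higher (red) and lower (blue) in RANKL by gene length in kb. Right, the median log2 change by gene length with the deposited values (black) and after quantile normalization (grey), rising from -0.22 in genes under 2 kb to 0.12 in genes of at least 100 kb with the deposited values.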

How the data were processed

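GRO-seq values of 6 libraries, 2 each of RANKL, WENRC and ENRI, were used as the authors deposited them, normalized on a log2 scale. Per the file headers, reads per gene were counted with HOMER on mm9 (analyzeRepeats.pl, condensed genes, raw counts) and compared with getDiffExpression.pl, and per the submitters' processing notes Bowtie2 2.3.4.1 and DESeq2 were used. The log transform and the handling of strand are not given in the sources used here. The shape of the low values is that of a regularized log, which is inferred. No counts per library were analysed, so the depth is unknown.

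Genes with a value of at least 3.32 (10 on a linear scale) in at least 2 libraries were fitted with limma 3.58.1 in R 4.3.3, with 3 culture means, a variance trend and Benjamini-Hochberg adjustment over 16563 genes. The fit was also run on simulated data with independent libraries and a common spread per gene. That setting leaves out the shared mice, the separate sequencing of RANKL and the unequal spread of the cultures, so it does not test the calls made here. Alternatives were another set of libraries, filter, scaling or variance model, a replicate block, and the authors' deposited adjusted p-values. The sign of the authors' fold changes was turned to RANKL minus WENRC.

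For H3K27me3, the authors called regions with HOMER on mm9, one culture against the other, per the file headers. The deposited tags of RANKL are counts, those of WENRC a signal scaled to the depth of RANKL, and the deposited fold is their ratio. Regions were tied to genes by a distance of at most 5 kb to the start site.

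Named genes were the 12 largest rises and falls among called genes whose libraries did not overlap, up to 4 called genes in each direction per list or family, or the largest change where none was called, and 13 genes of the M cell, stem cell and Polycomb sets. Of the tested genes 3946 (23.8%) overlap another listed gene and 86 have more than 1 genomic copy. The 48 lists and 50 families named by symbol, and the comparison itself, were chosen with earlier results of these data known. Of the listed genes 9 were not matched by symbol and were not analysed here. Some genes are not reported here.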

Additional observations from a re-analysis of the deposited data

How the results depend on the processing

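With 2012 genes called, 1412 higher and 600 lower, the count grew to 5194 (3002 and 2192) with the 4 compared libraries alone, which held all 2012. Their direction could not differ, since both fits take the same change per gene. In the authors' deposited table it grew to 4604 (2771 and 1833), which held 2008 in the same direction. Recentring on upper quartiles gave 1091 lower. Leaving out 1 library gave from 0 to 5176 calls, from 0 to 2990 higher and from 0 to 2186 lower, with 0 for either RANKL library and 262 and 216 for WENRC 1 and WENRC 2. The replicate block, which pairs equal library and mouse numbers, gave 1465 calls (1057 higher and 408 lower). The RANKL numbers are library numbers only. By the sex-linked genes both RANKL libraries were female and mouse 1 was male, so the block joins RANKL 1 to a mouse of the other sex. Over 16563 genes the differences between replicates correlated at -0.32 between RANKL and WENRC, -0.20 between RANKL and ENRI and 0.41 between WENRC and ENRI, so the numbers do not pair RANKL with the others. Without overlapping genes 1544 of 12617 were called, with a stricter filter 2127 of 13505, with no filter 1672 and without a variance trend 1848. Of the 370 called genes covered by the naming rule, 65 lost the call with the block, 41 with quantile normalization, 41 with no filter, 28 without the trend, 21 after recentring, 1 in the authors' deposited table, 289 and 292 without WENRC 1 and WENRC 2, and all 370 without either RANKL library. None of these changed direction in any of the settings run. The direction could change only with another scaling, without a RANKL or WENRC library, or with the authors' values. Replicates differed with an SD of 0.22 in RANKL, 0.42 in WENRC and 0.70 in ENRI, and the larger spread of ENRI enters the fit of 6 libraries and not that of 4. Why single results lost a call under the other settings was not tested. The depth of the libraries is unknown.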

Other observations

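Many genes of the responses to amino acid shortage and hypoxia were called lower in RANKL. The lists for both were put together after values of single members had been seen, so their counts are a description. Of 40 tested genes of the amino acid and ATF4 response, 21 were called lower and 0 higher (33 and 0 with the 4 compared libraries). Over all tested genes 3.62% were called lower and 8.53% higher. The list's median change was -1.02, and 39 of 40 changes were below 0, against a median of -0.01 over all tested genes. Stc2, a secreted glycoprotein, had 8.13 and 8.40 in RANKL, against 10.52 and 10.23 in WENRC and 7.53 and 7.18 in ENRI, and its change was -2.11 (limma FDR 0.00391). Chac1, which breaks down glutathione, had 6.04 and 5.81 against 7.78 and 7.95 in WENRC and 5.21 and 5.32 in ENRI (change -1.94, limma FDR 0.00461). Asns, the asparagine synthetase gene, had 8.39 and 8.39 against 9.63 and 9.57 in WENRC and 7.97 and 7.52 in ENRI (change -1.22, limma FDR 0.0132). In these 3 genes WENRC was high and RANKL lay above ENRI, and the median of the list was 0.25 for RANKL minus ENRI. Cth, which makes cysteine, fell by 2.07 on the log2 scale (limma FDR 0.0178), with 8.88 and 9.99 in ENRI against 7.93 and 7.74 in RANKL.

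Of 34 tested hypoxia response genes, 16 were called lower and 3 higher (20 and 4 with the 4 compared libraries), against 3.62% and 8.53% of all tested genes. The median change was -0.82, and 28 changes were below 0. Hif3a, a hypoxia-inducible factor subunit gene, had 6.47 and 6.35 in RANKL, against 8.47 and 8.39 in WENRC and 7.14 and 7.24 in ENRI (change -2.02, limma FDR 0.00243). Ero1l, an oxidase of the endoplasmic reticulum, had 10.49 and 10.40 against 12.30 and 12.11 in WENRC and 10.64 and 10.82 in ENRI (change -1.76, limma FDR 0.00295). RANKL was lowest for both. Mxi1 had 11.38 and 11.36 against 10.49 and 10.50 in WENRC and rose by 0.87 (limma FDR 0.0117), and Vegfa had a change of 0.52 that was not called (limma FDR 0.187). The list shares glycolysis genes with the list described above.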
